A study of Rattus norvegicus with 30 samples.

Results

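The YSS group consisted of 5 rats that self-administered saline and received the foot-shocks of a paired METH-taking rat, and it was compared with the CT group of 7 saline rats that received no shock. These 12 libraries, 1 per rat, were chosen by the group code in the library titles out of 30 libraries in the series. All animals were adult, wild type male Sprague Dawley rats. CT and YSS rats shared 21 days of saline self-administration, and neither group received METH. For YSS rats the shocks of the following 8 days were set by the lever presses of the shock-sensitive METH rat (SS) to which each was connected, so that they did not depend on the YSS rat's own pressing. The comparison YSS vs. CT therefore addresses foot-shock without METH. Yoked rats of shock-resistant METH rats (YSR, n = 5) and the SS rats themselves (n = 6) were used to show where YSS rats differ from the groups nearest to them. The shock-resistant METH rats (SR, n = 7) are shown for some genes. All 30 libraries entered the fit, so that the filter on low counts and the estimate of the spread are shared by the 5 groups. The YSS group is limited as a model by its size and by the fact that its name follows the behavior of the partner rat, not its own.

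Foot-shock is a physical stressor that activates the adrenal stress axis and noradrenergic arousal. The hippocampus carries dense receptors for adrenal steroids and is known for the storage of the context in which a shock was received, so that stress is commonly followed there at the level of mRNA. In the yoked design an animal receives the same shocks as its partner without control over them.

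The values are read counts on genes of a poly(A)-selected, paired-end library. The deposited tables give each gene by an Ensembl identifier and its position, and the gene names available here could be paired with none of the identifiers (0 matched). Genes are therefore described by their place in the tables, whose scaffold names are those of the rat assembly Rnor_6.0, although the build is not given in the sources used here. For the same reason, 31 lists with 926 gene symbols that had been prepared for stress hormones, immediate early genes, cell types and cell adhesion could not be applied, and no pathway or cell type is named below. The tissue could not be checked by marker genes either. The tissue field of the records names the dorsal striatum, and their protocol and the methods of the study name the hippocampus. In bulk tissue, fewer cells of a type and less RNA per cell cannot be told apart.

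Total counts were between 16224250 and 19404440 in CT libraries (median 17386092) and between 17155083 and 19181886 in YSS libraries (median 17830500). A floor of 3 counts corresponded to 0.155 to 0.185 CPM (counts scaled to the library's total) in CT and to 0.156 to 0.175 CPM in YSS libraries. Replicates differed more than sampling noise allows in both groups, with a chi-square per degree of freedom of at least 6.33 over 21 CT pairs and at least 5.02 over 10 YSS pairs, so that no library was a second copy of another. The share of mitochondrial counts was 7.52% ± 0.792 (SD, n = 7) in CT and 7.93% ± 0.233 (SD, n = 5) in YSS rats (exact two-sided permutation test, p = 0.292; adjusted over 5 library measures, 0.73). One CT library, XIII-L11, stood apart by 139 CPM on chromosome Y, where the other CT libraries had 225 to 236 CPM. The title code XII was carried by 1 CT and 1 YSS library, and the letter L by 2 of 7 CT and 3 of 5 YSS libraries. The sources used here do not explain these codes.

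In YSS vs. CT, 12 genes were lower and 1 gene was higher at a Benjamini-Hochberg adjusted p under 0.05 by edgeR's quasi-likelihood test, which is 0.076% and 0.00633% of the 15797 genes tested (0.0823% in either direction). The lower genes fell by large factors, while among 8677 genes with a mean of 16 CPM or more none changed by 1.7-fold at an unadjusted p under 0.05. At that unadjusted threshold 791 genes (5.01%) passed, 354 higher (2.24%) and 437 lower (2.77%), close to the share that the threshold admits by itself. With the criterion of 1.7-fold, 27 genes were higher (0.171%) and 68 were lower (0.43%) in YSS rats, 0.601% in all. The plot of change against level shows both sets of genes at the low end of the range.

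**Figure D1:**
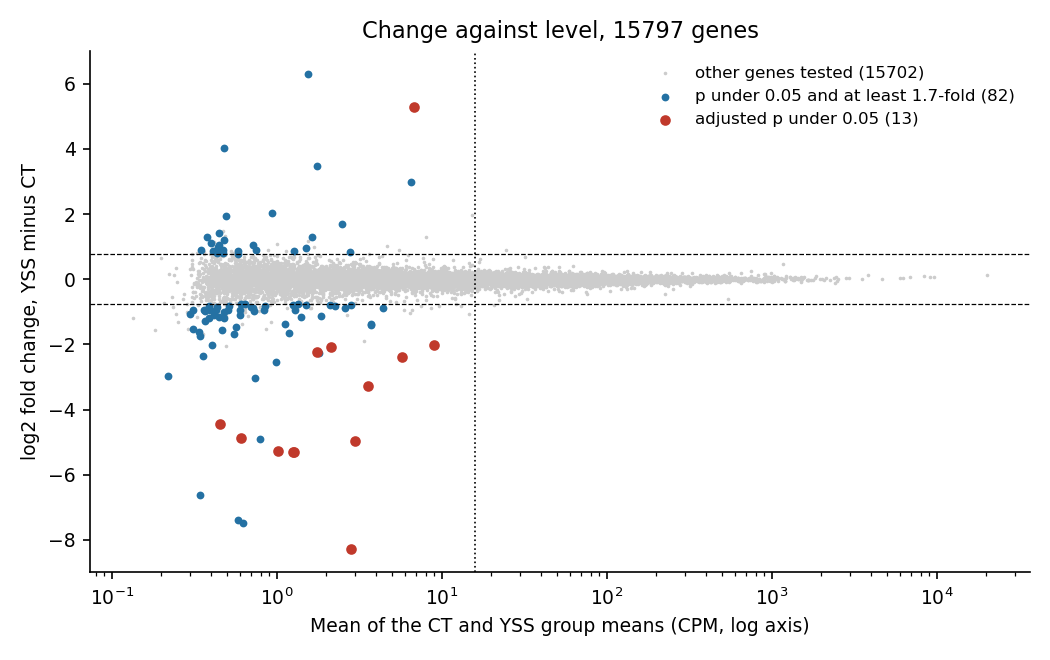
Log2 fold change in YSS vs. CT (vertical axis) against the mean of the 2 group means in CPM (horizontal log axis) for the 15797 genes tested. Blue points are genes at an unadjusted p under 0.05 and at least 1.7-fold (dashed lines), red points are the 13 genes at an adjusted p under 0.05, and no blue or red point lies to the right of 16 CPM (dotted line).

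The 12 lower genes had group means between 0.877 and 14.5 CPM in CT rats and between 0.0114 and 3.54 CPM in YSS rats. Their fitted log2 fold changes had a median of -4.67, beside -0.0016 over all genes tested. For each of the 12 genes, every YSS library lay below every CT library, which was the case for 51 of all genes tested (0.323%), and the exact two-sided permutation test then gives p = 0.00126, the smallest that 792 splits of 7 and 5 libraries allow. The genes were listed for this very difference, so that the separation and its p are a description and no further support.

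The gene with the smallest p was ENSRNOG00000007092, on the minus strand of chromosome 2 from 182027115 to 182038178. Its counts in the CT libraries were 71 (XIII-L11), 69 (XIII-L12), 95 (XIII-R05), 119 (XIII-R06), 115 (XIII-R11), 121 (XIII-R12) and 109 (XII-R11). In YSS rats a single count was found, in XIII-R04, and the libraries XIII-L02, XIII-L04, XIII-L06 and XII-R04 had 0. The groups thus did not overlap, and the YSS libraries all lay under the floor. With 699 counts in CT and 1 count in YSS rats, the ratio of counts corrected for depth was 510 (95% counting interval 91.2 to 20200), and the adjusted p of edgeR's quasi-likelihood test was 0.00152. Counting intervals of this kind cover counting error only.

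ENSRNOG00000005542, on the plus strand of chromosome 6 from 33176778 to 33224997, followed with the same adjusted p of 0.00152. The CT libraries had 77, 60, 114, 131, 109, 110 and 121 counts, in the order given above. The YSS libraries had 5 (XIII-L02), 0 (XIII-L04), 4 (XIII-L06), 2 (XIII-R04) and 5 (XII-R04) counts. The mean level was 5.79 ± 1.24 CPM (SD, n = 7) in CT and 0.176 ± 0.119 CPM (SD, n = 5) in YSS rats, and the fitted log2 fold change was -4.98 with a standard error of 0.756. Some YSS libraries were thus just above the floor of 3 counts, and all were far below the lowest CT library.

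The other 10 genes formed a part with hardly any YSS reads and a part that kept a measurable level. On chromosome 2, the genes from 181987217 to 181994514 and from 182006242 to 182013763 lie beside the first gene. They had 247 and 305 counts in the 7 CT libraries together, and 4 and 5 counts in the 5 YSS libraries together. A further chromosome 2 gene, from 180897011 to 180914940, had 146 counts in CT and 3 in YSS rats, a ratio of 35.5 after correction for depth (95% counting interval 11.9 to 174). Between the first and the last of these 4 genes, 6 other genes were tested, and 1 of them was called, as lower. The second gene of chromosome 14 (20266891 to 20302581) had 109 CT counts and 3 YSS counts, and its adjusted p of 0.0389 by edgeR's quasi-likelihood test was the closest to the threshold. That gene lost the call in 12 of 19 alternative fits (adjusted p between 0.00176 and 0.201), among them those without any 1 of the YSS libraries other than XII-R04 and without any 1 of 5 CT libraries. A gene on an unplaced scaffold had 312 and 5 counts.

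The remaining 5 genes were still counted in every YSS library. The first gene of chromosome 14 (19176277 to 19191863) had 14.5 ± 4.15 CPM (SD, n = 7) in CT and 3.54 ± 1.04 CPM (SD, n = 5) in YSS rats, 4.09 times as much in CT. For the chromosome 9 gene (74124016 to 74236274), CT rats reached 9.65 ± 2.63 CPM (SD, n = 7) and YSS rats 1.85 ± 0.436 CPM (SD, n = 5), with an adjusted p of 0.00723 by edgeR's quasi-likelihood test that became 0.0511 without the YSS library XIII-L04. For the gene of chromosome 1 (170423483 to 170431073), 6.46 ± 2.78 CPM (SD, n = 7) in CT stood against 0.665 ± 0.316 CPM (SD, n = 5) in YSS rats. The 2 genes of chromosome 5 (58994682 to 58994953 and 64805773 to 64818824) were 4.25 and 4.78 times as high in CT as in YSS rats. The means of these genes in YSS rats thus lay between 0.61 and 3.54 CPM, and their groups were as fully separated as those of the genes with almost no reads.

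The summed level of the 12 genes was 39.3 (XIII-L11), 39.8 (XIII-L12), 57.4 (XIII-R05), 63.5 (XIII-R06), 70.1 (XIII-R11), 66.3 (XIII-R12) and 65.1 CPM (XII-R11) in CT rats. In YSS rats it was 7.26 (XIII-L02), 7.51 (XIII-L04), 7.22 (XIII-L06), 7.33 (XIII-R04) and 10.1 CPM (XII-R04). The 2 CT libraries with the letter L were the lowest of their group, and the CT libraries spread much more widely than 4 of the 5 YSS libraries. The groups did not overlap for any of the 12 genes, so that separation within each title code follows and is a description only. Libraries with the letter L had 39.3 to 39.8 CPM in CT and 7.22 to 7.51 CPM in YSS rats. Those with the letter R had 57.4 to 70.1 and 7.33 to 10.1 CPM, and the single XII pair had 65.1 and 10.1 CPM. When the libraries of the code XIII were fitted alone (6 CT and 4 YSS), 4 of the 12 genes passed after adjustment. All 12 kept their direction, which the full separation had fixed in advance.

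The YSR and SS rats had the same low range. The summed level was 7.49 to 9.65 CPM in the 5 YSR libraries and 5.72 to 9.71 CPM in the 6 SS libraries, which overlap the YSS range. None of the 12 genes was called in YSS vs. YSR (p between 0.342 and 0.991) or in SS vs. YSS (p between 0.257 and 0.975). Over all genes tested, 3.29% and 4.27% were called in these comparisons, so that none among 12 is near that share and does not show equal levels. The intervals of these differences are wide for genes with almost no reads: for ENSRNOG00000007092 the log2 difference YSS minus YSR had a 95% interval from -6.5 to 6.43. For the first gene of chromosome 14, which is counted well in both groups, it ran from -0.892 to 0.514. Among the libraries of the shock-resistant METH rats (SR), which also received shocks, 3 of 7 had between 40.5 and 60 CPM and 4 had between 8.27 and 10.7 CPM. The 3 high SR libraries all carry the letter L (XIII-L09, XII-L05 and XII-L07) and the 4 low ones the letter R, whereas the CT libraries with the letter L were the lower ones and the SS and YSS libraries with it were all at the low level. In YSS vs. CT with the letter as a covariate, all 12 genes passed after adjustment by edgeR. That fit gives the letter the same effect in every group, while its relation to these genes differed between groups. It therefore cannot decide what the letter does to these genes. The same 7 CT libraries serve every comparison with CT.

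**Figure D2:**
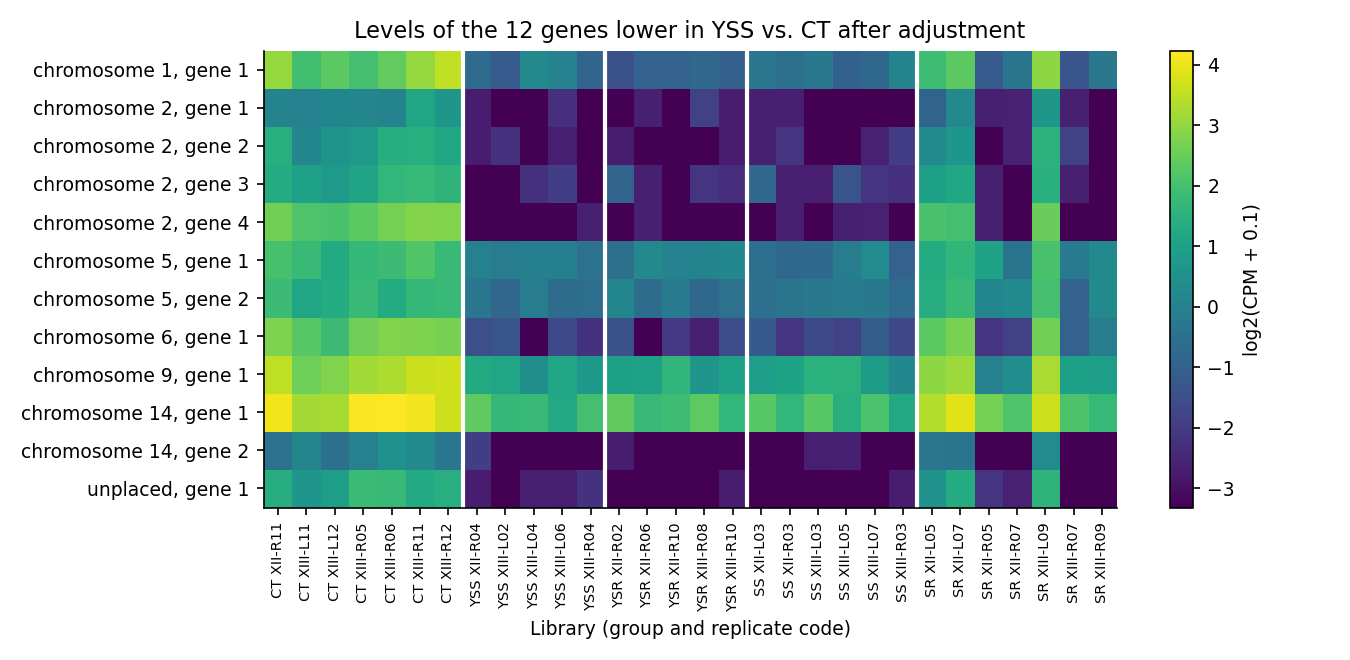
Heat map of the 12 genes lower in YSS vs. CT at an adjusted p under 0.05 (rows, in order along the chromosomes) in all 30 libraries (columns, groups separated by white lines). The color gives the level on a log2 scale of CPM with a small constant added. Within each row, all 7 CT libraries and 3 of 7 SR libraries are brighter than the YSS, YSR and SS libraries. The color scale is shared by all rows, so that rows also differ in brightness by the level of the gene.

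Another 56 lower genes passed 1.7-fold at an unadjusted p under 0.05 but not after adjustment. Their median log2 fold change was -1.09, their median level was 0.827 CPM in CT and 0.311 CPM in YSS rats, and in 13 of them the libraries did not overlap (0.323% over all genes tested). The genes were listed for the same difference, so that this count is a description. In 3 of these genes all 5 YSS libraries had 0 counts. The clearest, on chromosome 3, had 14 to 34 counts in each of the 7 CT libraries, which is 1.25 ± 0.406 CPM (SD, n = 7) on average and makes it at least 7.18-fold lower in YSS rats against the floor of 3 counts per library (adjusted p = 0.0568, edgeR). The second, on chromosome 4, had 152 CT counts, between 2 and 55 per library, and was at least 6.71-fold lower (adjusted p = 0.191, edgeR). The third, on chromosome X, had 5 to 17 counts in the CT libraries and was at least 3.95-fold lower (adjusted p = 0.108, edgeR). No read of the 3 genes was thus found in YSS rats at this depth, while each was counted in all 7 CT libraries. They were the only 3 of the 15797 genes tested with 0 counts in all YSS libraries. Such genes pass the filter on low counts only through other groups, and these were listed for their low YSS values. The contrast and the fold bounds are therefore descriptions.

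The higher genes were more mixed. Among the 12 named by the rule, 3 had a single dominant YSS library, 3 neighbours on chromosome 20 were high in 3 of 5 YSS libraries, and the other 6 were spread over most YSS libraries. Of the 27 genes higher by 1.7-fold, 4 had all YSS libraries above all CT libraries, as had 20 of all genes tested (0.127%), and the highest YSS library was XIII-L06 in 10 genes, XIII-L02 in 9, XIII-L04 in 6 and XIII-R04 or XII-R04 in 1 each. The 3 libraries that led in 25 of the 27 genes in this way are the YSS libraries with the letter L. That letter is carried by 3 of the 5 YSS libraries, and the corresponding share over all genes tested was not determined. The 27 genes include the 3 neighbours on chromosome 20, which were high in the same 3 libraries. The median level of the 27 genes was 0.327 CPM in CT and 0.786 CPM in YSS rats, so that most were close to the floor in both groups.

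ENSRNOG00000049829, on the plus strand of chromosome 4 from 98337367 to 98523473, was the only higher gene at an adjusted p under 0.05 (adjusted p = 0.0419, edgeR's quasi-likelihood test). The YSS library XIII-L06 had 1204 counts, 64.9 CPM. The other YSS libraries had 6 (XIII-L02), 1 (XIII-L04), 8 (XIII-R04) and 6 (XII-R04) counts. The CT libraries had 13, 6, 3, 13, 2, 2 and 2 counts, so that 4 of 5 YSS libraries lay within or below the CT range. Over the 12 libraries an exact permutation test (two-sided) returned p = 0.33, and without XIII-L06 the log2 fold change was -0.17 (adjusted p = 0.987, edgeR; other alternatives 0.0163 to 0.604). The same library had 260 counts of a gene on chromosome 6 (138054662 to 138662511), where the other YSS libraries had 12 to 30 and the CT libraries 11 to 32 counts. Both values belong to 1 rat and were not seen in any other YSS library.

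The gene on the minus strand of chromosome 3 from 123117492 to 123119460 also had a dominant library. Its counts in YSS rats were 53 (XIII-L02), 24 (XIII-L04), 141 (XIII-L06), 106 (XIII-R04) and 762 (XII-R04). The CT libraries had between 4 and 49 counts, so that 4 of the 5 YSS libraries exceeded the highest CT count and 1 did not. An exact permutation test (two-sided) returned p = 0.0177, and the adjusted p of edgeR's quasi-likelihood test was 0.617. The gene was named for this very difference, so that the permutation p is a description and no further support. A single SS library, XIII-R03, had 644 counts of the same gene, while the other SS libraries had 6 to 47.

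On chromosome 14, a gene from 5928737 to 5945321 was higher without such a library. It had 0.853 to 2.84 CPM in YSS and 0 to 0.831 CPM in CT rats, with means of 1.5 ± 0.798 (SD, n = 5) and 0.362 ± 0.303 (SD, n = 7), and the groups did not overlap (adjusted p = 0.782, edgeR). The YSR rats had 0.991 ± 0.434 CPM (SD, n = 5) and the SS rats 0.575 ± 0.605 CPM (SD, n = 6), between CT and YSS. The remaining higher genes named by the rule lie on chromosomes 1, 8, 10, 15 and X. They were 1.84 to 3.8 times as high in YSS as in CT rats by the fitted change, and each overlapped between the groups.

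**Figure D3:**
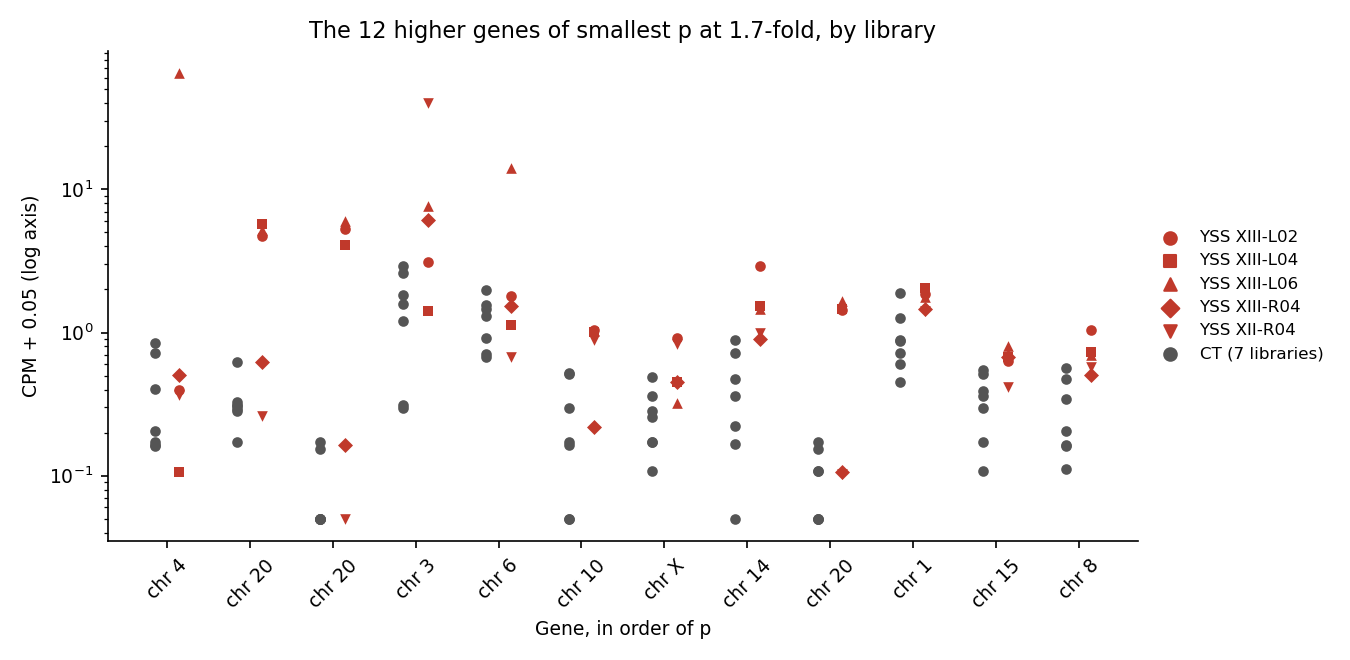
Level of the 12 higher genes with the smallest p at 1.7-fold (horizontal axis, in order of p, named by chromosome) in each CT (grey) and YSS (red, 1 symbol per library) library on a log axis of CPM with a small constant added. The first gene is raised in XIII-L06 alone, and the 3 genes of chromosome 20 are raised in the same 3 of 5 YSS libraries.

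Of all windows along the chromosomes, 1 held the most genes higher in YSS rats. The window from 3000001 to 4000000 on chromosome 20 held 44 genes tested, of which 7 were higher (15.9%, beside 2.24% over all genes) and 0 lower at an unadjusted p under 0.05. It was the only one of 2289 windows of 1 Mb in which 5 or more genes were called in the same direction. At least 4 were so called in 5 windows, this one included. Larger shares occurred in windows with fewer genes: 4 of 17 genes were lower on chromosome 5 (23.5%) and 4 of 20 on chromosome 3 (20%). A window of chromosome 1 held 4 higher genes of 40 (10%). None of the 7 higher genes on chromosome 20 passed after adjustment, and the chromosome 20 window was singled out after its values were seen. Rat chromosome 20 carries the major histocompatibility complex, a gene region that includes antigen-presenting molecules with many close copies. Whether this window lies in that region was not tested. Whether reads of close copies were shared between genes of the window was not tested either.

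The 7 genes fell into 2 kinds. The 3 neighbours at the start of the window were all or none. ENSRNOG00000026051, on the plus strand from 3135791 to 3140610, had 80 (XIII-L02), 100 (XIII-L04) and 95 (XIII-L06) counts in 3 YSS libraries, and 10 (XIII-R04) and 4 (XII-R04) in the other 2. The CT libraries had 4, 4, 5, 5, 2, 10 and 5 counts. The gene from 3134704 to 3135301, on the other strand, had 90, 71, 111, 2 and 0 counts in the YSS libraries in the same order, and at most 2 in any CT library. The gene from 3126829 to 3127609 had 24, 25, 30, 1 and 1 counts in YSS and at most 2 in CT libraries. The same 3 rats were thus high for all 3 genes, and the other 2 YSS rats lay at or near the CT level.

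For ENSRNOG00000026051 the group means were 0.281 ± 0.138 CPM (SD, n = 7) in CT and 3.25 ± 2.64 CPM (SD, n = 5) in YSS rats, but neither YSS mean nor SD describes a rat, since no library lay near the mean. An exact permutation test (two-sided) returned p = 0.0164 and edgeR's quasi-likelihood test an adjusted p of 0.617. This gene, too, was named for its difference between YSS and CT, so that the permutation p is no further support. The high level also occurred in METH rats and in YSR rats. Summed over the 3 genes, 8 of the 30 libraries had 182 to 483 counts and the others at most 18. The 8 were 3 of 5 YSS, 3 of 6 SS, 1 of 5 YSR and 1 of 7 SR libraries, and 0 of 7 CT libraries. The 3 YSS libraries carry the letter L, as do 2 CT libraries with 5 and 6 counts, and over the series 5 of 12 libraries with the letter L and 3 of 18 with the letter R had the high level. With the letter as a covariate, the log2 fold changes of the 3 genes, in the order described, were 3.003, 5.555 and 3.553 instead of 3.49, 6.29 and 4.04 (edgeR, adjusted p between 0.796 and 0.83), and 6 genes of the window were higher.

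The next gene tested along the chromosome, from 3146856 to 3150852, went the other way without passing the test. It had 23.1 (XIII-L02), 22.6 (XIII-L04), 20.2 (XIII-L06), 26.4 (XIII-R04) and 38.1 CPM (XII-R04) in YSS rats. In CT rats it had 34.4, 43.8, 25.8, 24.8, 29.8, 44.3 and 40.7 CPM. The 3 YSS libraries that were high for the 3 neighbours were the lowest of the 12 libraries. The log2 fold change in YSS vs. CT was -0.41 with a standard error of 0.453 (adjusted p = 0.98, edgeR). In the SS library XII-L03, which had the most counts of the 3 neighbours (483), the next gene was at 0.114 CPM, and in the SS libraries XIII-R03 and XII-R03 (313 and 220 counts) it was at 6.66 and 7.58 CPM. The SR library XII-L07 (219 counts) had 8.8 CPM and the YSR library XII-R10 (182 counts) 19.6 CPM. The following 3 genes tested, up to 3162939, had log2 fold changes of -0.219, -0.561 and -0.502 in YSS vs. CT. Their unadjusted p was between 0.115 and 0.475 by edgeR's quasi-likelihood test. Exact permutation tests (two-sided) returned p = 0.29, 0.0215 and 0.0114, unadjusted. In the SS library XII-L03 these genes were at 0.114 to 0.457 CPM.

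The 4 other higher genes of the window were expressed in every library and changed by less. The gene from 3189473 to 3197457 had 9.73 to 16.6 CPM in YSS and 7.28 to 11.7 CPM in CT rats, with a log2 fold change of 0.58 and a standard error of 0.165. The gene from 3176107 to 3179818 had 13.3 to 24.8 CPM in YSS and 9.7 to 21 CPM in CT rats, with a log2 fold change of 0.54. The genes from 3367150 to 3386106 and from 3588497 to 3599514 were 1.18 and 1.11 times as high in YSS as in CT rats. In all 4, the YSS and CT libraries overlapped, and the SS rats had means between those of CT and YSS rats.

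**Figure D4:**
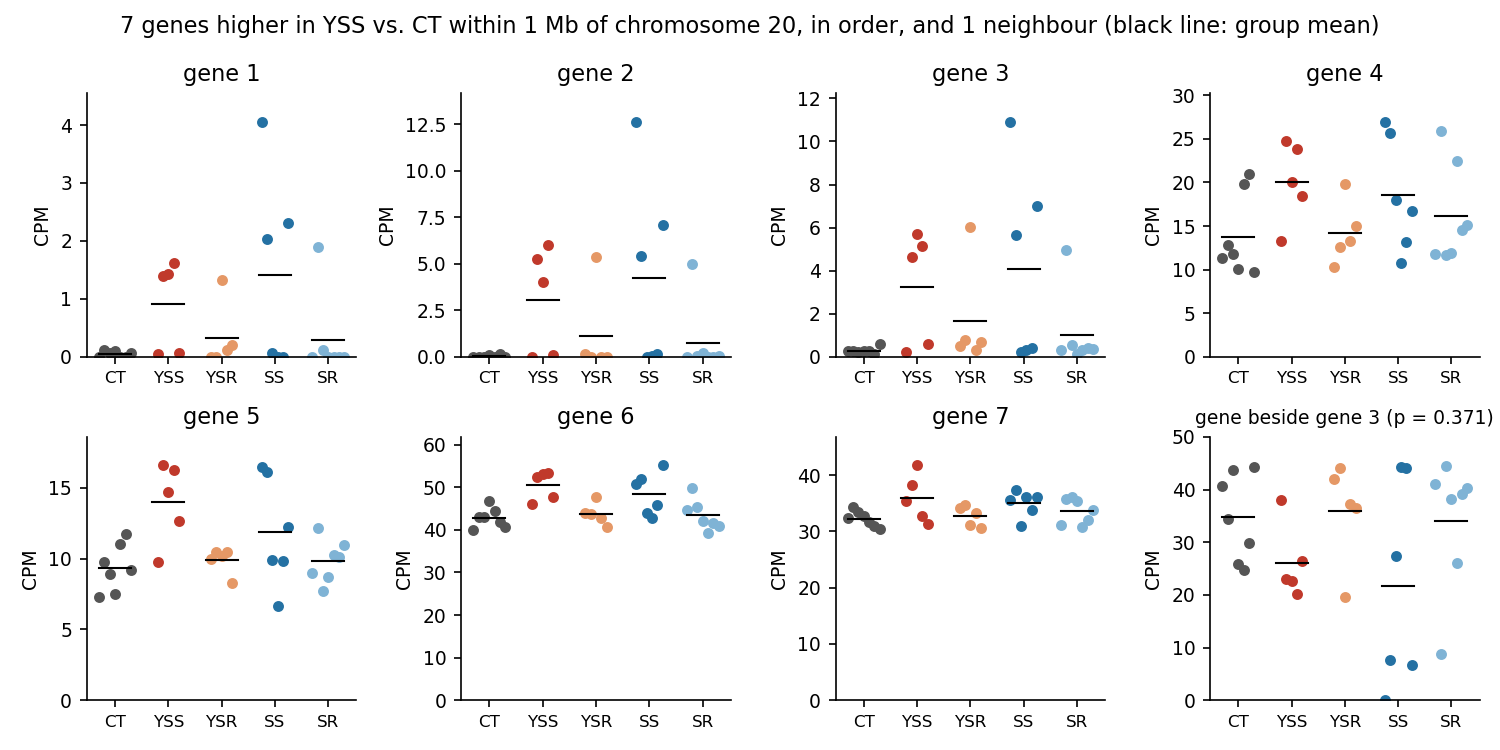
Level in CPM (vertical axes, from 0) of the 7 genes of the chromosome 20 window higher in YSS vs. CT, in order along the chromosome, and of the gene beside the third, in each library of the 5 groups. Points are libraries and black lines group means. Genes 1 to 3 are near 0 in all CT libraries and high in 3 of 5 YSS libraries, and genes 4 to 7 differ by less than 2 times between the group means.

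Well expressed genes differed little between YSS and CT rats. Of the 8677 genes at 16 CPM or more, 371 passed an unadjusted p under 0.05, and their log2 fold changes lay between -0.497 and 0.696. In 99.5% of these genes the 95% interval of the change lay within 1.7-fold in both directions, and in 95.2% it lay within 1.3-fold. For genes under 1 CPM the first share was 21.5%, so that most intervals there reach beyond changes of that size. The absence of large changes is therefore a measured bound for well expressed genes and a limit of depth for the others.

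Among well expressed genes, 11 had all YSS libraries above and 20 had all YSS libraries below the CT libraries. These are 0.127% and 0.23% of the class, beside 0.127% and 0.323% over all genes tested, so that such genes were no more frequent here than elsewhere and those below are examples only. The largest of the higher ones lies on chromosome 7 from 26256459 to 26306126. Its level was 46.9 ± 4.12 CPM (SD, n = 7) for CT and 56 ± 2.86 CPM (SD, n = 5) for YSS rats, a log2 fold change of 0.25 with a standard error of 0.0771. A gene of chromosome 1 (101120325 to 101123402) had 110 to 129 CPM in CT and 136 to 153 CPM in YSS rats. The largest lower change of a nuclear gene in this class was on chromosome 2, from 181045703 to 181102918, between the 4 lower genes described above. It had 27 to 41.5 CPM in CT and 23.4 to 26.2 CPM in YSS rats, a log2 fold change of -0.46 with a standard error of 0.196. The YSR and SS means of this gene were 30.1 and 33 CPM, nearer to the CT mean of 34 CPM than to the YSS mean of 24.7 CPM. Each of these 3 genes had an adjusted p of at least 0.741 by edgeR's quasi-likelihood test, and they were chosen after their values were seen.

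On the mitochondrial chromosome, the 13 genes of 200 bases or more did not pass the test, with log2 fold changes between -0.00982 and 0.175. Among 16 shorter genes, all of 64 to 75 bases as transfer RNAs are, 3 were lower in YSS rats with no overlap, and none was higher. Over all genes tested, 2.77% were lower and 0.323% were lower without overlap. The gene from 3835 to 3903 had 22.2 to 31 CPM in CT and 17.2 to 20.2 CPM in YSS rats (log2 fold change -0.50, standard error 0.143). The gene from 6865 to 6933 had 58.1 ± 5.95 CPM (SD, n = 7) in CT and 44.8 ± 3.66 CPM (SD, n = 5) in YSS rats, and that from 7693 to 7756 had 1.69 ± 0.192 and 0.991 ± 0.289 CPM. These genes touch or nearly touch longer mitochondrial genes, so that reads of the neighbours can be counted on them. As for the 12 lower genes, YSR and SS rats lay at the YSS level, with means of 19.8 and 17.4 CPM for the first of them, and the adjusted p was at least 0.617 in edgeR's quasi-likelihood test.

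The median change in YSS vs. CT was ordered by gene length. From the shortest to the longest of 10 classes of gene span, the median log2 fold change went from 0.0213 to -0.0431. In the shortest class (median span 935 bases) 4.49% of genes were higher and 2.34% lower at an unadjusted p under 0.05, and in the longest (median span 190956 bases) 1.14% were higher and 5.32% lower. The shortest class also had the lowest level, with a median of 2.54 CPM against 31.6 CPM in the longest. Per library, the median deviation of the longest minus that of the shortest class was 0.0436 ± 0.0495 (SD, n = 7) on the log2 scale in CT and -0.0199 ± 0.0636 (SD, n = 5) in YSS rats. This difference did not exceed the spread between rats (exact two-sided permutation test, p = 0.0783; adjusted over 5 library measures, 0.391). Without the YSS library XIII-L04, which had the lowest value of the 12, the difference between the group means was -0.039 instead of -0.0635. The same measure was -0.0317 ± 0.0307 (SD, n = 5) in YSR, 0.00409 ± 0.106 (SD, n = 6) in SS and -0.0418 ± 0.0926 (SD, n = 7) in SR rats. The YSS mean thus lay within the range of the other shocked groups.

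**Figure D5:**
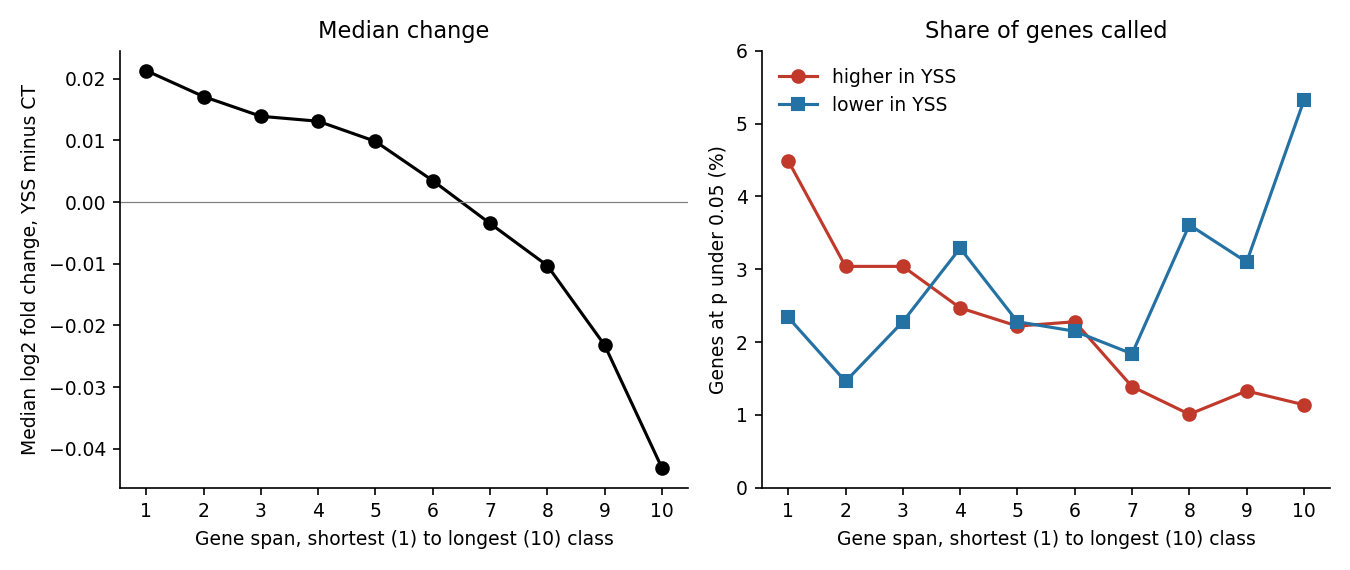
Median log2 fold change in YSS vs. CT (left) and the percentage of genes at an unadjusted p under 0.05 (right, red higher and blue lower in YSS) for 10 classes of gene span, from the shortest (1) to the longest (10). The median goes from 0.0213 to -0.0431.

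Compared with the nearest groups, fewer genes were called than in YSS vs. CT, and the difference in number was not tested. In YSS vs. YSR, 237 genes were higher (1.5%) and 282 lower (1.79%) at an unadjusted p under 0.05, 3.29% of those tested in all, and none passed after adjustment by edgeR. SS vs. YSS compares METH rats with saline rats that were yoked to shock-sensitive METH rats. There, 364 genes were higher (2.3%) and 311 lower (1.97%) in SS rats, 4.27% in all, and none passed after adjustment. The labels do not give the pairs, so that the 6 SS and 5 YSS libraries were compared unpaired. Their shocks are thus not matched library by library. The 27 genes higher in YSS vs. CT had a median log2 fold change of 0.63 in YSS vs. YSR, where 4 of them were called, and of -0.66 in SS vs. YSS, where 9 were called. The 56 lower genes that did not pass adjustment had medians of -0.36 and 0.54 in these comparisons, with 10 and 18 genes called. These genes were listed for their YSS values, which also enter both other comparisons, so that their direction there is not independent of the choice.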

How the data were processed

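RNA was sequenced as poly(A)-selected, paired-end libraries. Per the submitters' processing notes, the tools used were bcl2fastq 2.17, Trimmomatic 0.36, STAR 2.5.2b and featureCounts of Subread 1.5.2. The authors deposited raw read counts of 32552 Ensembl genes per library, not normalized. The build and the use of strand are not given in the sources used here, and the library kit does not mark strand, so that overlapping and antisense genes cannot be told apart. The members, gene lists and tests were chosen with earlier results of these data known.

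Counts of all 30 libraries were fitted with edgeR 4.0.16 (R 4.3.3; quasi-likelihood test, 5 groups as the only factor, TMM normalization, default filter on low counts, 15797 genes kept), and p-values were adjusted over all genes tested by the Benjamini-Hochberg method. The spread is thus shared by all groups. The records do not say how samples were taken beyond 1 rat per library. The records and the abstract of the study give a time of 2 h after the last session. Its methods say immediately, so that the time is not settled. CPM of single genes used TMM-scaled totals of the genes tested, and log2 CPM a prior count of 2. The floor in CPM, the chromosome Y level, the mitochondrial share and the ratios of counts used the raw totals of all genes. For single values, exact permutation tests were run over 7 CT and 5 YSS libraries. Genes were named by rule: all genes at an adjusted p under 0.05, and the 12 higher and 12 lower genes with the smallest p at 1.7-fold with at least 0.5 CPM in the higher group. At most 2 identifiers per direction are printed. The gene lists could not be applied (911 of 926 symbols were in the RefSeq table of GRCr8, which is not paired with Ensembl identifiers). The code was tested on simulated data. Alternatives were DESeq2 1.42.0 without independent filtering, median-ratio size factors, other filters, fold criteria, covariates and samples, Tukey's test on log2 CPM, and each library left out. The chromosome 20 window, the well expressed genes without overlap, the length classes and the mitochondrial genes were chosen after the data were seen.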

Additional observations from a re-analysis of the deposited data

Results flagged for a closer look

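Within CT and YSS rats, 22 sets of values (11 measures in each group) were searched for a library far from the rest of its group by Dixon's test at the 95% level, which by chance marks about 1 in 20 such sets, and 5 were marked. In CT rats, XIII-L11 had 139 CPM on chromosome Y, where the other 6 had 225.4 to 235.6 CPM. In YSS rats, XII-R04, the only one with the code XII, had a summed level of 10.05 CPM for the 12 lower genes, where the other 4 had 7.224 to 7.506 CPM; the lowest CT library had 39.31 CPM. ENSRNOG00000007092 had 0.05684 CPM in YSS XIII-R04 and 0 in the other 4 libraries, which is 1 count and under the floor of 3. ENSRNOG00000049829 had 64.91 CPM in YSS XIII-L06, where the other 4 had 0.05686 to 0.4547 CPM. ENSRNOG00000026051 had 0.5709 CPM in CT XIII-R12, which is 10 counts, where the other CT libraries had 0.1228 to 0.2756 CPM. The causes were not tested.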

How the results depend on the processing

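Counts in YSS vs. CT that moved by more than 1.5 times depended on the low genes admitted, the samples or the test. When a gene needed a single count in any library to be kept, 1350 genes passed the unadjusted threshold and 678 also 1.7-fold, and YSS vs. YSR and SS vs. YSS gave 941 and 1169. With at least 10 counts required in every library, 13 genes passed 1.7-fold, 2 passed adjustment and 4 were higher in the chromosome 20 window, with 2 of the 12 lower genes and 34 of the 44 window genes left to test. When only the groups compared were fitted, 61 genes passed 1.7-fold and 4 were higher in the window. In the libraries with the title code XIII alone, 148 passed 1.7-fold, 4 passed adjustment, all of them among the 12 lower genes, and SS vs. YSS gave 1034. Criteria of 1.5-fold and 2-fold gave 155 and 57 genes, and Tukey's test on log2 CPM gave 101 at p under 0.05. Apart from what is stated, the causes were not tested. DESeq2 gave 770 genes at the unadjusted threshold and 14 after adjustment, all lower, of which 11 were among the 12; it gave no p-value for the chromosome 4 gene. Leaving out each library in turn gave 580 to 940 genes, 96 to 126 at 1.7-fold, 11 to 13 after adjustment, of which 10 to 12 were among the 12 lower genes, and 5 to 8 higher genes in the window. For ENSRNOG00000049829 these fits gave log2 fold changes from -0.17 (without YSS XIII-L06) to 5.637, and its adjusted p was under 0.05 in 6 of 17 alternatives. The length difference was -0.07839 to -0.039 in the same fits, with an exact permutation p of 0.0433 without CT XIII-L12 and 0.0455 without YSS XIII-R04, unadjusted. The share of higher genes among those called stayed between 43.3% and 51.2%. No paired analysis was possible because CT and YSS libraries share no replicate code. The labels do not name the SS partner of each YSS rat either. Depth limits the genes under 1 CPM, of which 21.5% had intervals within 1.7-fold.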
